A study of Mus musculus with 14 samples.

Results

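The cytosolic ribosomal protein genes were examined in the livers of male Apoe-deficient mice, which are prone to atherosclerosis and whose strain the labels give as C57BL/6, that received a Western diet (control) or the same diet with 10 mg/kg of erythrodiol, a triterpene alcohol found in olive oil. Poly-A RNA of 7 partially pooled samples per group was sequenced, so that neither a group nor a library stood for single animals. All animals of both groups lacked apolipoprotein E and received the Western diet. The labels give 8 weeks both as the age and as the time on the diet, whereas the methods of the study give a longer time on the diets. Members were the genes of the deposited table whose symbol began with Rpl, Rps or Rplp and a number, or was Rpsa, leaving out the ribosomal S6 kinases and the symbols of pseudogenes, and this gave 86 of the 17552 genes. Of these, 53 carried names of the large (60S) and 33 of the small (40S) subunit. The name also took in genes that are not themselves building blocks of the ribosome, such as Rps19bp1, which encodes a nucleolar protein binding a ribosomal protein. A count of at least 100 in the groups together was reached by 83 members and by 13291 genes in all. The 3 members below it were Rpl39l with 8 counts in control and 0 in erythrodiol, Rpl3l with 12.03 and 16, and Rpl32l with 1 and 2. Each gene had 1 expected count per group, summed by the authors over its libraries, so the spread between libraries was not seen, no test could be made, and the 95% exact intervals given here cover counting error only.

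The ribosome is assembled in the nucleolus from ribosomal RNA and one copy of nearly every ribosomal protein, apart from the acidic stalk proteins, which are present in several copies. Messenger RNAs of vertebrate ribosomal proteins begin with a terminal oligopyrimidine tract, called TOP, a cytosine at the cap followed by a run of pyrimidines, through which their translation and stability respond to mTOR and to the protein LARP1. In the liver, where plasma proteins are made in bulk, these messengers are abundant, short and made by every cell type.

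The windows around the annotated starts of 8 members are shown because the tract is the feature these messengers are known for, although most members did not have it at the annotated start, and because members carrying it stood at both ends of the order of change. They were read from the promoter table of RefSeq (build GRCm38.p6), run from 10 bases before the start through the start, which is the 11th letter, to the 30th letter, and carry in capitals the unbroken run of pyrimidines that holds the start.
Rps15a: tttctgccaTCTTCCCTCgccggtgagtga
Rps21: aggacccgCCCTCCTgcccaatagtgctgc
Rps18: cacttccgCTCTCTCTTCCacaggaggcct
Rps6: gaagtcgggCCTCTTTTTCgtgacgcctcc
Rpl14: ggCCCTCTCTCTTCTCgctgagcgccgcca
Rps10: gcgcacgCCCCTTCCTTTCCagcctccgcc
Rplp2: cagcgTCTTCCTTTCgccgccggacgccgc
Rpl28: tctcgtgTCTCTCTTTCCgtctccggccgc
These windows lie at chr7:118116128-118116157 on the minus strand for Rps15a, chr2:180257369-180257398 on the plus strand for Rps21, chr17:33955646-33955675 on the minus strand for Rps18 and chr4:86857348-86857377 on the minus strand for Rps6. Those of Rpl14, Rps10, Rplp2 and Rpl28 lie at chr9:120571507-120571536 (plus), chr17:27635225-27635254 (minus), chr7:141447641-141447670 (plus) and chr7:4792955-4792984 (plus). The first 4 were the lowest, and the last 4 the highest, in log2 ratio relative to genes of like length among the members whose start had the tract. The values were -1.17 for Rps15a, -1.13 for Rps21, -0.61 for Rps18 and -0.35 for Rps6, against 0.07 for Rpl14, 0.36 for Rps10, 0.48 for Rplp2 and 0.61 for Rpl28. That of Rps15a rests on a length of 5158 bases, and by total counts its log2 ratio was -0.89. Rps6 had -0.33 by total counts, but -0.06 when summed with LOC105244208, a gene annotated as the same protein, so its place is uncertain. The run of pyrimidines was 9 bases long in Rps15a, 7 in Rps21, 11 in Rps18 and 10 in Rps6, and 14 in Rpl14, 13 in Rps10, 10 in Rplp2 and 11 in Rpl28.

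As a family, the ribosomal protein genes took a smaller share of the liver's messenger RNA in the erythrodiol group. Their share of all counts was 1.779% in control (exact interval 1.777% to 1.781%) and 1.356% in erythrodiol (1.354% to 1.358%). On the log2 scale the sum differed by -0.39, and the median over the 83 members with at least 100 counts was -0.42, whereas the median of all genes was 0.16. A log2 ratio here is that of a gene's count plus 0.5, each divided by the total of its group. Of the 83 members, 56 were lower by 1.2-fold or more, against 11.4% of all genes tested, and 1 member, Rpl28, was higher by as much, against 33.7% of all genes. Relative to the median of all genes, 60 members were lower by 1.2-fold or more and 0 higher, with 20.2% of all genes lower and 10.9% higher. The ratio by total counts lay below 0 in 72 members, compared with 28.8% of all genes. The counting interval lay entirely below 0 in 68 members and in 17.4% of all genes, and entirely above 0 in 9 members and in 54.6% of all genes. At these depths the intervals were narrow, reaching in the median member 0.027 to either side on the log2 scale, so they do not stand for the unseen variation between animals. In bulk liver, fewer cells of a type and less RNA per cell cannot be told apart.

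Both subunits showed the same tendency. The 50 members of the 60S subunit had a median log2 ratio of -0.39, with 34 lower by 1.2-fold or more, and the 33 of the 40S subunit had a median of -0.49, with 22 lower. The range ran from -1.66 for Rpl22l1 to 0.28 for Rpl28 in the large subunit and from -1.46 for Rps21 to 0.18 for Rps26 in the small one. The SD of the log2 ratios over the members was 0.40, and their counting intervals reached at most 0.18 to either side. How much of this spread lay between animals was not seen.

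**Figure D1:**
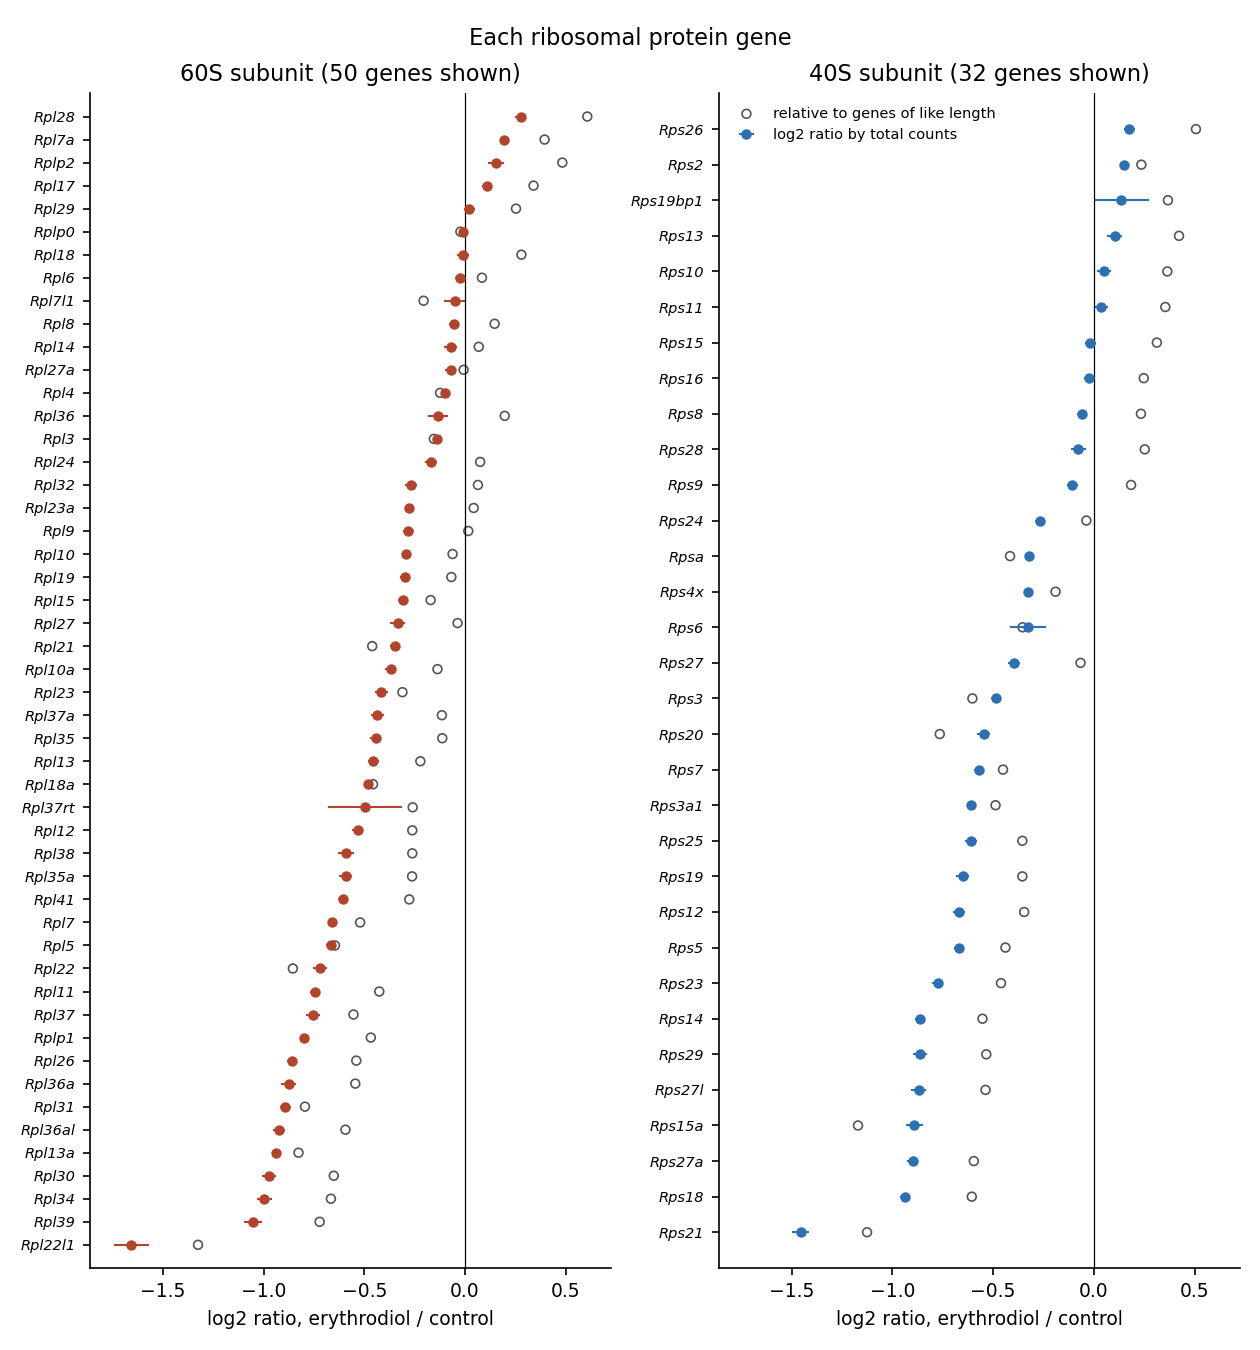
Log2 ratio of erythrodiol to control for members of the 60S (left) and the 40S subunit (right) with at least 100 counts; 1 member is not drawn. Filled points and bars are the ratio by total counts with its 95% counting interval, open circles the ratio relative to genes of like length; filled points run from -1.66 (Rpl22l1) to 0.28 (Rpl28), and most lie below 0.

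Ribosomal protein messengers are short, and in these data the median ratio was lower in classes of shorter genes. The members had a median length of 730 bases (362 to 5158), compared with 2856 bases over all genes tested, and across all genes the log2 ratio was higher in longer genes (Spearman's rho 0.43 across 13291 genes, which share the same libraries). For this reason each member was also set against the median of the 300 other genes nearest to it in length. After that, the median of the members was -0.26. By this measure 38 members were lower by 1.2-fold or more, against 17.8% of all genes, and 11 were higher, against 9.30% of all genes. The ratio relative to genes of like length lay below 0 in 58 members and above 0 in 25, with 50.2% of all genes below 0. The members thus lay on both sides of genes of like length, more of them below than above.

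The comparison depended on the length of the member. Among genes of 500 bases or less, the 15 members had a median log2 ratio of -0.61 and the 66 other genes -0.61, and 7 of these members lay below the median of the other genes, so that the shortest members as a group stood where other genes of that length stood. Over 500 and up to 700 bases the medians were -0.53 for 23 members and -0.27 for 195 other genes. Over 700 and up to 1000 bases they were -0.30 for 27 members and -0.19 for 536 others. Over 1000 and up to 1500 bases, the 11 members had a median of -0.33 and the 1332 others -0.01. The 7 members above 1500 bases (Rpl21, Rpl22, Rpl7l1, Rps15a, Rps20, Rps3 and Rpsa) all lay below the median of other genes of their class, which was 0.10 up to 2500 bases and 0.24 beyond. Their class rests on the deposited length, which was 5158 bases for Rps15a and 3446 for Rps20. Per length these 2 had control levels of 21.2 and 48.1, against a median of 285 over the members. Whether such lengths are those of the transcripts read was not tested. The 300 genes nearest to the shortest member reached from 333 to 731 bases, and the 23 shortest members, up to 525 bases, shared these genes and their median of -0.33, so that the correction was coarse at this end.

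**Figure D2:**
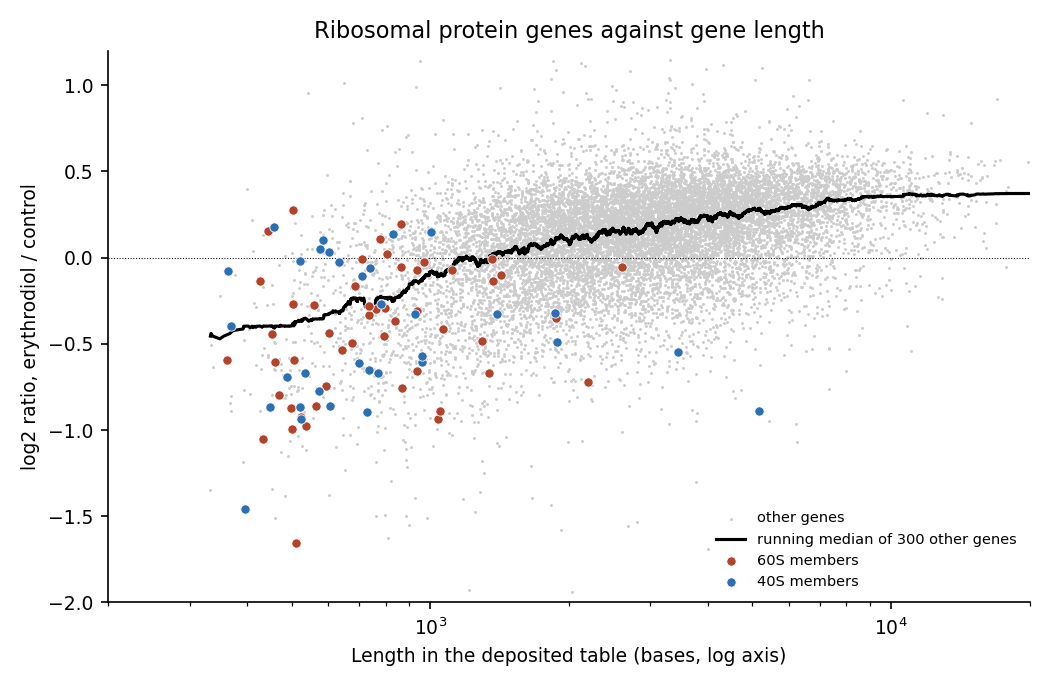
Log2 ratio of erythrodiol to control (y axis) against the length given in the deposited table (x axis, bases, log axis) for genes with at least 100 counts, within the plotted range. Grey points are other genes, the line is the running median of 300 of them, and coloured points are the members; members of 500 bases or less lie on both sides of it, with medians of -0.61 for both kinds of gene, and the 7 members above 1500 bases lie below it.

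Base composition accompanied the differences within the family. Members poor in GC were lower than members rich in GC: the 20 members with the lowest GC content (39.0% to 48.5%) had a median log2 ratio of -0.63, and the 20 with the highest (54.6% to 60.8%) one of -0.12. Relative to genes of like length these medians were -0.53 and 0.17. GC content was that of the transcript nearest to the deposited length. The values of Rps20 (41.3%) and Rps15a (45.4%), both in the low group, thus rest on their long deposited lengths. Across the 82 members with a GC value, Spearman's rho between GC content and the ratio relative to genes of like length was 0.42, compared with 0.27 across 13038 genes, both as descriptions over genes of the same libraries. When each member was set against the 300 genes nearest in both length and GC content, a comparison chosen after seeing the data, the median was -0.26, with 41 of 82 members lower by 1.2-fold or more (16.0% of all genes) and 8 higher (7.78% of all genes). The members of low GC content then had a median of -0.40 and those of high GC content one of -0.03. What part length and base composition had in the members' difference was not tested beyond these comparisons.

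**Figure D3:**
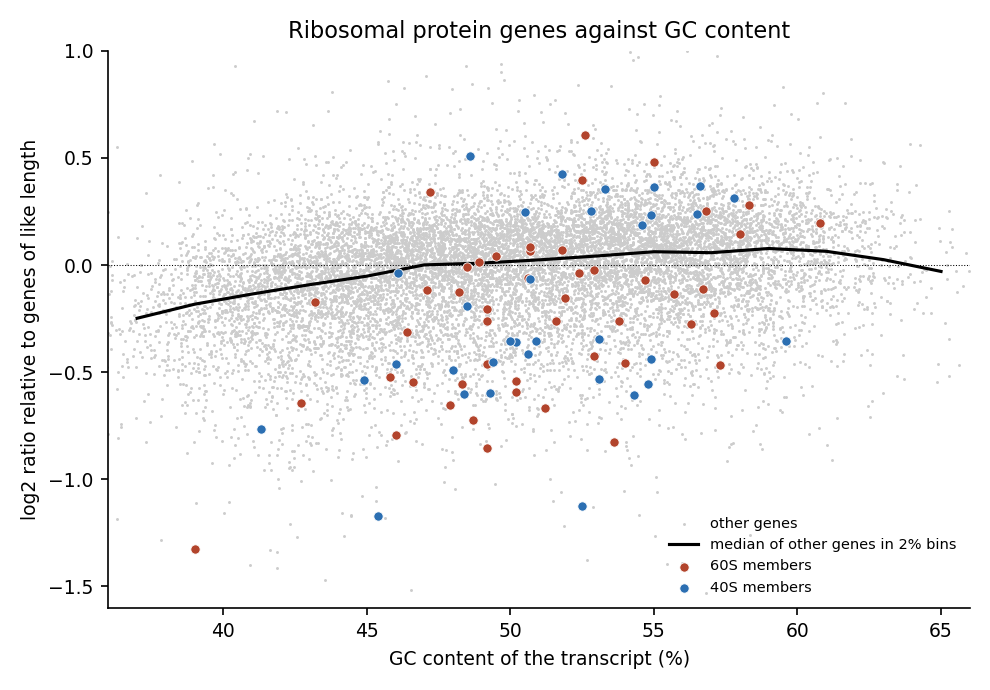
Log2 ratio relative to genes of like length (y axis) against the GC content of the transcript (x axis, percent). Grey points are other genes, the line their median in bins of 2%, and coloured points the members; members from 39.0% to 48.5% GC have a median of -0.53 and those from 54.6% to 60.8% one of 0.17.

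Past 2-fold, 3 members were lower, against 0.549% of all genes, and 0 were higher, against 0.218% of all genes. Relative to the median of all genes, 16 members were lower by as much, against 1.03% of all genes. Rpl22l1, which encodes a paralog of the RNA-binding protein Rpl22, had 4324 counts in control and 1391 in erythrodiol (log2 -1.66, interval -1.75 to -1.57). Rps21, which encodes a small protein of the 40S subunit needed to mature its ribosomal RNA, had 15054 and 5567 counts (-1.46, -1.50 to -1.41). Rpl39, a tiny protein lining the tunnel through which the new peptide leaves, had 12366 and 6048 counts (-1.05, -1.10 to -1.01). Rpl39 stood just past that limit, and just short of it stood Rpl34 with 19526 and 9931 counts (-0.996) and Rpl30 with 19775 and 10204 (-0.98).

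Relative to genes of like length, the 5 lowest members were Rpl22l1 (-1.33), Rps15a (-1.17), Rps21 (-1.13), Rpl22 (-0.86) and Rpl13a (-0.83). Rpl13a, whose protein is also known as a repressor of translation in inflamed macrophages, went from 69012 to 36580 counts (log2 -0.94, interval -0.96 to -0.92). Rps15a had 13458 and 7363 counts (-0.89), but a length of 5158 bases in the table, the longest of any member, which set both its reference genes and its level. At the other end stood Rpl28 (0.61), Rps26 (0.51), Rplp2 (0.48), Rps13 (0.42) and Rpl7a (0.40). Rpl28 had 19937 counts in control and 24507 in erythrodiol (log2 0.28, 0.25 to 0.30). Rps26, part of the channel for the leaving messenger RNA, had 18420 and 21116 (0.18, 0.15 to 0.20), and Rpl7a had 37443 and 43477 (0.20, 0.18 to 0.21). Proteins of the same particle thus had ratios on both sides of 0 by total counts, but when ratios were taken relative to the median of all genes, which shifts each by 0.16, 3 members (Rpl28, Rps26 and Rpl7a) remained above 0.

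The stalk is the flexible arm of the 60S subunit that recruits the GTPases of translation. Its base, Rplp0, had 46602 counts in control and 46971 in erythrodiol (log2 -0.01, interval -0.03 to 0.01). Rplp1 had 37939 and 22133 (-0.80, -0.82 to -0.77), whereas its partner Rplp2, with which it forms dimers, had 8923 and 10065 (0.15, 0.11 to 0.19), which is -0.01 relative to the median of all genes. Per kilobase and 1000000 counts, the level of Rplp1 was 4.02 times that of Rplp2 in control and 2.08 times in erythrodiol. The expected counts of Rplp2 were fractional (8923.36 and 10064.94), its reads having been divided among genes, so its values are uncertain. Rpl12, which lies beside the base of the stalk, had 28217 and 19789 counts (-0.53).

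The 5S ribonucleoprotein, which carries the 5S ribosomal RNA into the subunit and outside it binds Mdm2, holds Rpl5 and Rpl11. Both were lower: Rpl5 had 47239 and 30176 counts (log2 -0.67, -0.65 relative to genes of like length) and Rpl11 had 34021 and 20580 (-0.75, -0.43). Of the 9 members around the exit tunnel and the docking sites of chaperones, 8 were lower by 1.2-fold or more (56 of the 83 members and 11.4% of all genes). Relative to genes of like length 4 were lower (38 of the 83 members, 17.8% of all genes) and 1, Rpl17 at 0.34, was higher (11 of the 83 members, 9.30% of all genes). The ratios by total counts had a median of -0.59 and a range from -1.05 for Rpl39 to 0.11 for Rpl17. Rpl23a and Rpl35, which flank the mouth of the tunnel, had log2 ratios of -0.28 and -0.44. The list left out Rpl4, another protein of the tunnel, with 54104 and 51300 counts (-0.10, -0.12 relative to genes of like length).

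For the head and beak of the 40S subunit, the part that clasps the messenger, 15 genes were listed. The list took in Rps2 of the body, near the entry of the messenger, and left out Rps27a of the beak. Of the 15 genes, 9 were lower by 1.2-fold or more and 0 were higher (11.4% and 33.7% of all genes, and 56 and 1 of the 83 members), with a median of -0.55. Relative to genes of like length 9 were lower and 2, Rps10 and Rps15, were higher (17.8% and 9.30% of all genes, and 38 and 11 of the 83 members). Rps18 had 36214 and 19197 counts (log2 -0.94), while Rps2, near the entry of the messenger, had 60402 and 67993 (0.15, 0.13 to 0.17, or -0.01 relative to the median of all genes). Rps15 with 22363 and 22424 counts (-0.02) and Rps16 with 24400 and 24350 (-0.02) had counting intervals that held 0. The list includes Rack1, a scaffold protein on the head that the name rule leaves out, with 33630 and 30430 counts (-0.17).

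A few ribosomal proteins are made fused to ubiquitin or to a ubiquitin-like domain. Rps27a, the fusion of ubiquitin to a 40S protein, had 30000 counts in control and 16332 in erythrodiol (log2 -0.90, -0.93 to -0.87). Fau, the fusion of a ubiquitin-like domain to a 40S protein, is outside the name rule and had 19967 and 17069 (-0.25, -0.28 to -0.22). Relative to genes of like length Rps27a stood at -0.60 and Fau at 0.07.

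Heterozygous loss of some ribosomal protein genes causes Diamond-Blackfan anaemia, a failure of red cell production. Of the 11 such members listed, 9 were lower by 1.2-fold or more (56 of the 83 members and 11.4% of all genes), with a median log2 ratio of -0.59. Relative to genes of like length 6 were lower and 2 higher (38 and 11 of the 83 members, 17.8% and 9.30% of all genes). Rps19, the gene most often affected in patients, had 19367 and 12506 counts (log2 -0.65). Rpl26 had 31850 and 17809 (-0.86), Rpl35a 17701 and 11906 (-0.59), Rps7 39539 and 26998 (-0.57), Rpl15 28585 and 23395 (-0.31) and Rps24 28085 and 23653 (-0.27). Rpl5 and Rpl11 were also among the lower members, while Rps10 (14887 and 15641, log2 0.05) and Rps26 were the higher ones relative to genes of like length.

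Of the 11 paralogs listed, 6 were in the table and 4 had at least 100 counts, with a median log2 ratio of -0.90 by total counts. All 4 lay below 0 relative to genes of like length, as did 58 of the 83 members and 50.2% of all genes. By 1.2-fold or more 3 of the 4 were lower on this measure, against 38 of the 83 members and 17.8% of all genes. Rpl36al, a paralog of Rpl36a, had 24114 and 12893 counts (log2 -0.92), and Rpl36a itself had 15775 and 8724 (-0.88). The paralog thus made up 59.1% of their joint level per length in control and 58.3% in erythrodiol. Rps27l had 16563 and 9203 counts (-0.87), whereas Rps27 had 23311 and 17973 (-0.40), and the share of the paralog was 33.5% in control and 26.7% in erythrodiol. Rpl22l1 made up 51.9% of the joint level with Rpl22 in control and 36.1% in erythrodiol, while Rpl22 itself had 17232 and 10603 counts (-0.72). Rpl7l1, whose protein works in the nucleolus, had 6134 and 6004 counts (-0.05). How the authors' counting divided reads between near-identical copies was not seen, so these shares are uncertain.

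Levels between members are compared per length, as counts per kilobase and per 1000000 counts of the group. The median level of the 83 members was 285 in control and 213 in erythrodiol, whereas the median over all genes was 4.73 and 5.36. The lower and upper quartiles of the members were 211 and 351 in control and 147 and 277 in erythrodiol. Among the highest levels in control were those of Rpl41 (830), Rpl10 (701), Rplp1 (660), Rps18 (562), Rpl13a (541), Rps27 (513), Rpl23a (509), Rps2 (489) and Rps14 (471). Rpl41 encodes the smallest protein of the ribosome, and Rpl10 the protein that completes the 60S subunit in the cytoplasm. In erythrodiol these genes had levels of 545, 572, 379, 294, 282, 390, 420, 543 and 259 in that order. Rpl10 thus stood first in place of Rpl41, Rps2 went from the ninth to the third place, and Rps14 from the tenth place to place 28. Rpl28 stood in place 28 in control (323) and in place 6 in erythrodiol (391), and Rps21 in place 34 (309) and place 69 (113). Across the 83 members, levels in the groups had a Spearman's rho of 0.82, to which the shared lengths contribute.

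**Figure D4:**
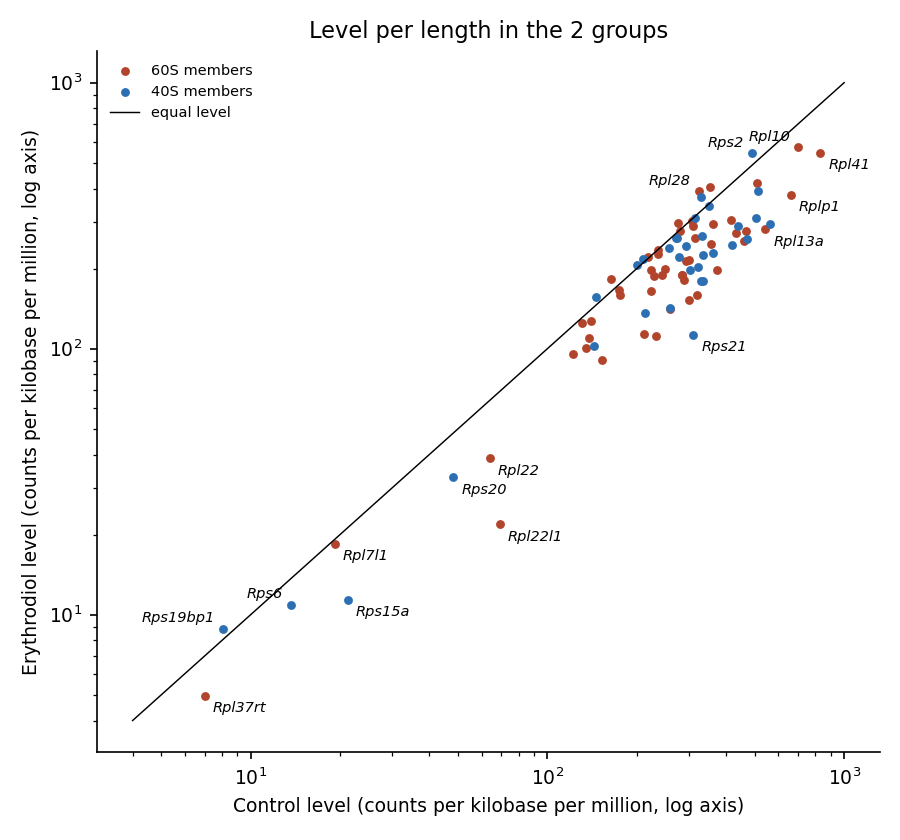
Level of each member in control (x axis) and erythrodiol (y axis), in counts per kilobase per 1000000 counts of the group, on log axes, with the line of equal level. Most members lie below the line, Rps2 (489 and 543) and Rpl28 (323 and 391) lie above it, and a few members of long annotated length or low count lie far below the rest.

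The few members far below the others in level call for care with their rows. Rps6, the classical target of the S6 kinases, had 2347 and 1898 counts, a level of 13.7 in control, whereas LOC105244208, a gene outside the name rule that the table annotates as the small subunit protein S6e, had 42390 and 41544 counts, a level of 424. With both rows summed, the log2 ratio was -0.06, compared with -0.33 for Rps6 alone. LOC100862455 and LOC100044627 held identical counts of 9358 in control and 6324 in erythrodiol (log2 -0.59), beside 17618 and 13401 for Rpl23 (-0.42). Rpl37rt, a retrotransposed copy of Rpl37, had 582 and 418 counts (-0.50, -0.68 to -0.32) and Rps19bp1 had 823 and 918 (0.14, 0.00 to 0.27). Rps20 (3446 bases) and Rps15a (5158 bases) had levels of 48.1 and 21.2 in control at 20364 and 13458 counts, since their length in the table was large. Expected counts were whole to within 0.01 in both groups for 62 of the 83 members, and the other 21, whose reads were divided among genes, had a median log2 ratio of -0.44, compared with -0.38 for the whole ones. Relative to genes of like length these medians were -0.35 and -0.18. On that measure 12 of the 21 were lower by 1.2-fold or more and 1 higher, against 26 and 10 of the 62 (all genes: 17.8% and 9.30%).

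Other parts of the translation machinery were described for comparison by lists chosen with earlier results of these data known. The 16 other genes whose messengers are known to carry a TOP tract had a median log2 ratio of 0.13 (0.04 relative to genes of like length), with 3 lower and 2 higher by 1.2-fold or more. For these and the next lists the shares of all genes are 11.4% lower and 33.7% higher, so that counts of higher genes near or below that share are no result about a list. Among them the elongation factor Eef1a1 had 508099 and 573789 counts (log2 0.15), Eef2 was highest (135685 and 172063, 0.32) and Eif3e lowest (13339 and 9433, -0.52), and Tpt1, a small TOP messenger, had 144908 and 105335 (-0.48). The 32 initiation factors had a median of 0.14, from -0.67 for Eif3m to 0.40 for Eif4g1, with 1 lower and 7 higher, and Eif4g2 had the highest counts (59367 and 69524, 0.21). The 48 factors of ribosome biogenesis had a median of 0.17, from -0.60 for Nip7 to 0.51 for Gar1, with 4 lower and 9 higher, and Ncl, nucleolin, had 13099 and 16286 counts (0.29). The 14 genes of RNA polymerase I and its factors had a median of 0.13, from -0.33 for Polr1c to 0.51 for Rrn3, with 1 lower and 5 higher, and Ubtf had the highest counts (6170 and 7154, 0.19). The 14 genes around mTOR had a median of 0.39, from -0.21 for Rheb to 0.59 for Myc, with 0 lower and 8 higher, but 0.12 relative to genes of like length. In this list Eif4ebp2 had 28261 and 40052 counts (0.48) and Larp1, whose protein binds TOP messengers, 14782 and 20481 (0.45). The median of the ribosomal protein genes, at -0.26 relative to genes of like length, lay below those of all 5 lists, which ran from -0.03 to 0.12.

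Genes encoding subunits of 3 other large complexes or pathways had medians between those of the members and of all genes by total counts. Relative to genes of like length this held for the proteasome and oxidative phosphorylation but not for the mitochondrial ribosomal proteins. The median lengths were 1056 bases for the mitochondrial ribosomal proteins and 1369 for the proteasome, above that of the members. The 78 mitochondrial ribosomal proteins had a median log2 ratio of 0.01 (0.02 relative to genes of like length), with 21 lower and 4 higher by 1.2-fold or more (all genes: 11.4% and 33.7%, here and for the next lists). The lowest of these was Mrps14 (-0.95) and the highest Mrps2 (0.36), and Mrpl12 had the highest counts (14581 and 8484, -0.80). The 38 proteasome subunits with at least 100 counts had a median of -0.21 (-0.19 relative to genes of like length), with 16 lower and 1 higher, from -0.76 for Psmb3 to 0.33 for Psmd3. The 82 nuclear genes of oxidative phosphorylation, whose median length of 703 bases was near that of the members, had a median of -0.27 (-0.09 relative to genes of like length), with 41 lower and 3 higher, from -1.37 for Ndufa2 to 0.36 for Atp5d. Psmd2 with 17661 and 18542 counts (0.05) and Atp5b with 99524 and 109374 (0.12) had the highest counts of their lists. The differences between the members and these sets have no replicate check.

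**Figure D5:**
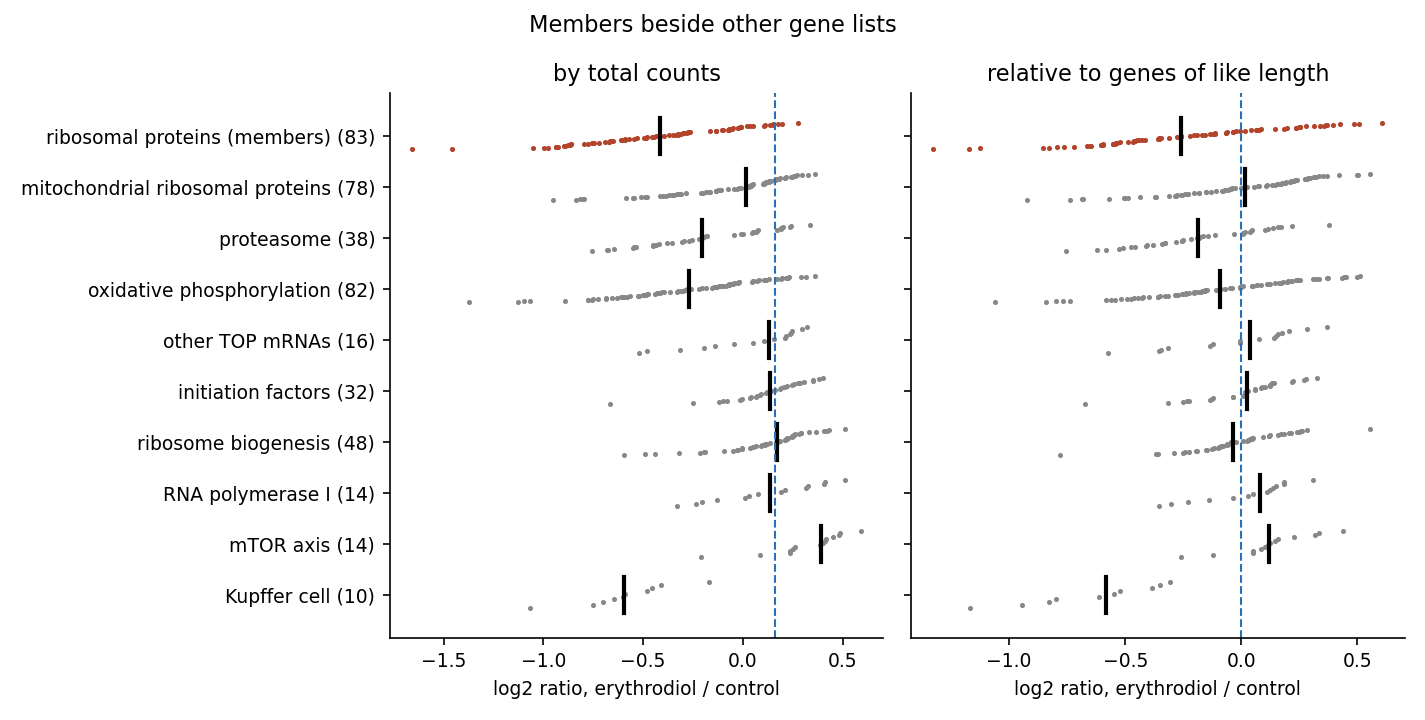
Log2 ratio of erythrodiol to control for each gene with at least 100 counts of the members and 9 other lists, by total counts (left) and relative to genes of like length (right), with the number of genes in brackets. Black bars are medians and the dashed line is the median of all genes; the members' medians are -0.42 and -0.26, those of the mitochondrial ribosomal proteins 0.01 and 0.02.

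The promoter table held an entry for 63 of the 83 members. The annotated start was a cytosine followed by at least 4 pyrimidines in 13 of them (20.6%), compared with 2.86% of the 10541 other genes tested and 2.51% of all 32851 windows of the table. A run of 8 or more pyrimidines between 10 bases before and 20 bases after the start was found in 38.1% of members, 13.8% of other genes and 11.2% of all windows. The letters CCGGAAG, found in sites of the ETS family of factors and searched on both strands of the 300 bases, occurred in 39.7% of members, 18.8% of other genes and 8.86% of all windows. AAGATGGC, letters found in sites of YY1, occurred in 9.52%, 5.00% and 2.75%, and TATAAA in 11.1%, 9.35% and 13.6%. The first 2 features overlap where a tract at the start is long, and each feature was counted alone. Members with the tract at the annotated start had a median log2 ratio relative to genes of like length of -0.17 and those without it -0.24. Whether the annotated starts are those used in these livers was not tested, so members without the tract there may still have TOP messengers. For the run of 8 or more pyrimidines the medians were -0.09 with and -0.26 without it, for CCGGAAG -0.36 and -0.13, for AAGATGGC -0.55 and -0.19 and for TATAAA -0.55 and -0.21. AAGATGGC was found in 6 members and TATAAA in 7.

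New coding transcripts, assembled by the authors from these reads, were listed for 15 of the 83 members (18.1%), compared with 35.8% of all genes. Among the 672 other genes between the length of the shortest member and 948.5 bases, the upper quartile of the members, the share was 17.9%. Rps27a had the most, with 3 new transcripts, and the members together had 20. Members with a new transcript had a median log2 ratio relative to genes of like length of -0.17, and those without one -0.26.

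Markers of some other liver cells were lower in erythrodiol beside the family, and those of others were not. All 10 markers of Kupffer cells had a log2 ratio below 0, against 28.8% of all genes tested. Their sum went from 1359 to 899 per 1000000 counts (log2 -0.60), with Cd5l highest in count (65371 and 40760). Below 0 were also 6 of 6 bile duct, 5 of 6 erythroid, 8 of 9 neutrophil, 6 of 10 lymphocyte and 5 of 7 pancreas markers. The same held for 3 of 10 hepatocyte, 3 of 7 endothelial and 3 of 7 stellate markers. Only 2 of the neutrophil markers reached 100 counts. Sums for bile duct epithelium went from 117 to 79.3 on this scale, for erythroid cells from 1264 to 929, for neutrophils from 10.8 to 5.21, for lymphocytes from 37.2 to 31.9 and for pancreas acinus from 15.0 to 10.5. Hepatocyte markers were at 116898 and 116976 (log2 0.00), with all 10 at high counts, sinusoidal endothelium at 198 and 204 and stellate cells at 529 and 503. Alb, with 9898794 and 9665610 counts (-0.055), made up most of the hepatocyte sum. The median log2 ratio over the 10 hepatocyte markers was 0.17, from -0.40 for Fabp1 to 0.38 for Tat. Striated muscle was near 0, at 0.293 and 0.0881, with Ckm and Ttn at 0 in erythrodiol and Myh7 at 0 in control. The part of these cells in the lower counts of the ribosomal protein genes was not tested.

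Total counts were 122889032 in control and 124686047 in erythrodiol. The 7 control libraries had 34856340 to 55244294 clean reads, of which 64.33% to 81.43% mapped to genes, and the 7 erythrodiol libraries had 47669656 to 48058606 clean reads, of which 72.96% to 76.13% mapped. Between 51.36% and 67.12% of control reads and between 57.85% and 65.32% of erythrodiol reads had a single gene as their target. Since the members' counts were summed over the libraries of a group, no value could be computed without a given library.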

How the data were processed

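Liver poly-A RNA of 7 libraries per group was read by the authors as paired ends on a BGISEQ-500 instrument, and the reads were processed with HISAT, StringTie, Cufflinks, Bowtie2 and RSEM per the labels; versions are not given in the sources used here. The authors deposited an expected count per gene and group, 1 value summed over the libraries and not normalized, with a length per gene. The authors deposited counts of clean reads and percent mapped per library. Columns of the authors' own comparison (a log2 ratio, a p-value, a q-value and a direction) were not used. Labels gave the group and number of each library.

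Members and lists were chosen with earlier results of these data known. Each count plus 0.5 was divided by the total of its group, and the log2 ratio of erythrodiol to control was taken, with a 95% exact (Clopper-Pearson) interval on rounded counts. Ratios relative to genes of like length subtract the median of the 300 nearest other genes with at least 100 counts. Calls are differences of 1.2-fold or 2-fold, without a test. Members named are the 10 of highest control level, the 5 highest and 5 lowest relative to like length, and those of the stalk, 5S, fusion, paralog and anaemia lists, while of other lists the gene of highest count and those of extreme ratio are named. Some genes of these rules are not reported here. Other genes were named after their values were seen. GC content came from the GENCODE M21 transcript nearest in length, for 98.1% of genes. Promoter windows came from RefSeq (GRCm38.p6), the build of the files. The computation was tested on simulated data. Computation used scipy 1.17.1, pandas 2.3.3 and numpy 2.4.6 under Python 3.11.15, and plots matplotlib 3.10.9.

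Alternatives were other scalings, count minimums of 10 and 1000, a pseudocount of 5, 100 or 1000 nearest genes, genes of like level, whole counts alone and the paralogs left out. Added after seeing the data were GC content, GENCODE lengths and a set of structural proteins.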

Additional observations from a re-analysis of the deposited data

Results flagged for a closer look

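Control replicate 3 had 64.33% of its clean reads mapped to genes, the lowest of the 7 control libraries and far from the next for the range of its group. Chance alone marks about 1 in 20 groups in this way, and 6 groups of values were examined (clean reads and both mapping rates in either group). Its contribution to the summed counts of the ribosomal protein genes was not seen.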

How the results depend on the processing

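None of the 57 alternative values turned the direction of a result. In 38 of them the value stayed within its counting error or, for counts of genes, within 1.5 times. Scaling by the median ratio of all genes, which shifts every log2 ratio by 0.16, gave a summed log2 ratio of -0.55 and a median of -0.58, and totals without the 20 genes of highest count gave -0.48 and -0.50. Under the median scaling Rpl28 was no longer higher by 1.2-fold. The median relative to genes of like length, -0.26, was -0.22 at a minimum of 1000 counts, -0.18 with 100 nearest genes, -0.23 with genes of like level, -0.18 for whole counts, -0.22 without the paralogs and -0.32 with GENCODE lengths. The GENCODE lengths were those of the transcripts nearest to the deposited lengths, so they are no independent check of them. With 1000 nearest genes, 7 members were higher by 1.2-fold or more in place of 11. Among members with whole counts the median was -0.38 and the control share 1.371%, and without the paralogs the share was 1.737% and the summed ratio -0.38. With Fau, Rack1 and LOC105244208 added and Rps19bp1, Rpl37rt and the paralogs left out, the summed ratio was -0.37, the medians -0.36 and -0.18 and the share 1.814%. No paired analysis was possible because a gene's counts were deposited as 1 sum for each group, and for the same reason no replicate could be left out.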
